A study of Mus musculus with 3 samples.

Results

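Ion channel genes were described in the kidneys of mice with early anti-GBM glomerulonephritis, a disease set off by antibody against the glomerular basement membrane (GBM), the filter layer between capillaries and podocytes. The genes were those of table rows annotated with a single symbol beginning with Kcn, Cacn or Clcn, or with Scn, Clic, Trpc, Trpm, Trpv, Hcn, Asic, Ryr or Itpr and a digit, together with Cftr. There were 124 such genes on 219 rows, out of 10698 genes on 16281 rows. The symbols also took in Trpc4ap, which encodes a protein that binds a channel, and the antisense RNAs Kcnmb4os1 and Kcnmb4os2.

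Total kidney RNA came from 3 BALB/c mice, named 11, 12 and 13, each taken 1 day after the anti-GBM antibody and each hybridised to its own 2-colour array. The anti-GBM RNA carried Cy5. The other channel of every array carried Cy3-labelled RNA pooled from 5 normal BALB/c mice. Since all normal RNA was in that 1 pool, a test of the ratio against 0 leaves out the spread between normal mice, and with no dye swap any dye effect remains in each value. The p-values thus rest on the spread between the 3 anti-GBM arrays, with variance shared between genes by the test, and hold none between normal mice. The deposited values are log ratios whose base and direction are not stated. They were read as anti-GBM over control, the likely direction given the dyes, and all signs below would turn if the ratio ran the other way.

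Ion channels are membrane pores that let potassium, sodium, calcium or chloride pass down their gradients. In the kidney tubule they work beside pumps and cotransporters: potassium channels return potassium to the lumen or the blood side, chloride channels of the ClC family carry chloride out of the cell or acidify endosomes, and the epithelial sodium channel takes up sodium in the collecting duct. Voltage-gated sodium, calcium and potassium channels are best known from nerve and muscle, and in whole kidney they can come from vessels, nerves or tubules. Whole-kidney RNA cannot tell fewer cells of a type from less RNA per cell.

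Exactly 0 was listed for 29.5% to 33.7% of the values of an array and was read as no estimate. A value other than 0 on all 3 arrays was required for the test, and 77 of the 124 channel genes (62.1%) had such a row, against 67.6% of all genes. A further 24 had values on 1 or 2 arrays only and 23 were listed at 0 everywhere. Genes of each kind of channel differed in how often they were measured. All 7 ClC genes and all 5 genes of the Slo and SK potassium channels were measured, as were 10 of 13 inward rectifiers, but only 4 of 8 voltage-gated sodium channel genes, 11 of 20 voltage-gated calcium channel genes and 2 of 5 HCN and ASIC genes. Of a list of channels known from nerve and muscle, 31 of 58 genes with a row were measured (53.4%), and of a list of kidney channels 24 of 30 (80.0%). The test required a value in every mouse, so these shares describe the table and do not show absence of a transcript.

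Channel genes were lower more often than higher. Of the 77 measured genes, 14 were lower (18.2%), 4 were higher (5.2%) and 59 did not pass, by limma's moderated test with Benjamini-Hochberg adjusted p under 0.05 over all 7235 genes. Among all genes 9.97% were lower and 9.48% were higher, together 19.4%. The median log ratio of the channel genes was -0.107, against -0.001 over all genes, and their medians in mice 11, 12 and 13 were -0.11, -0.08 and -0.134. In 37 of the 77 (48.1%) the ratio was below 0 in every mouse, and in 11 (14.3%) above 0 in every mouse. The same shares over all genes were 28.7% and 27.8%. No list was tested against the rest, so these shares are a description. The calls rest on limma's sharing of variance between genes: with each gene's own variance 0 channel genes passed. An unadjusted p under 0.05 was then found for 21 of the 77 (29 with limma), against 1634 of all 7235 genes (2602 with limma). Such counts for families and lists below are to be read beside those over all genes.

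Many of the lower calls lie in stretches of the table that hold very low rows. A stretch was called crowded where at least 3 other rows within 100 row numbers had a mean below -1. A measured row in such a stretch was present for 18 of the 77 channel genes (23.4%), against 8.13% of all measured genes. It was present for 7 of the 14 genes called lower and for 1 of the 4 called higher. Without those rows 8 of 68 channel genes were lower (11.8%) and 3 were higher (4.41%), against 9.43% and 9.65% of all 6901 genes then tested. The share of lower calls was thus near that of all genes once crowded stretches were left out, and the share called in either direction was 16.2%, against 19.1%. The median of the 18 genes was -0.24 and that of the other channel genes -0.053. What makes neighbouring rows low was not tested.

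**Figure D1:**
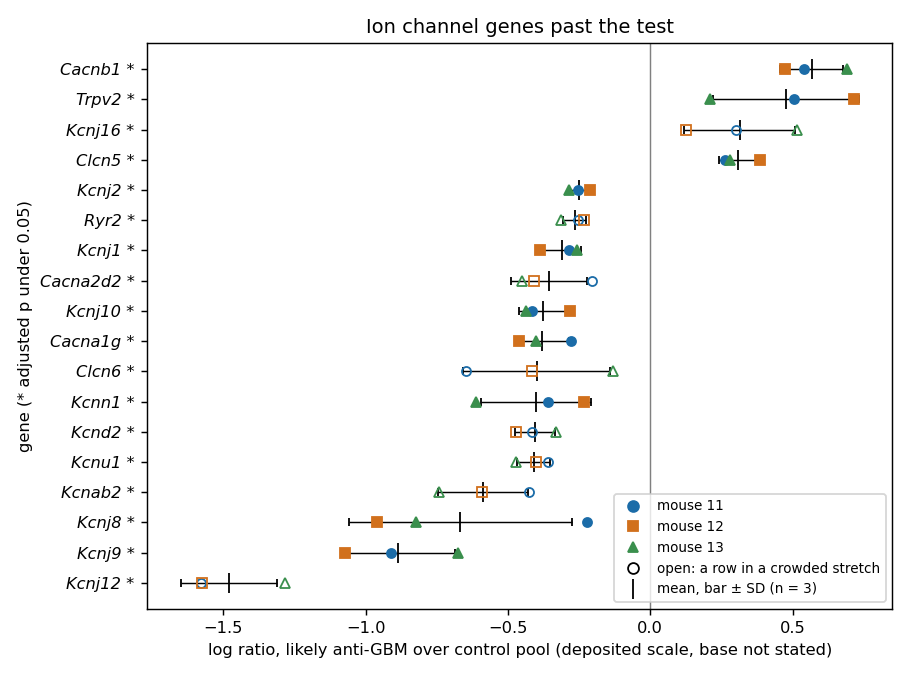
Log ratio (horizontal axis, deposited scale) of the 18 channel genes past the test, with each mouse as a symbol and the mean ± SD of the 3 mice in black; open symbols mark genes with a row in a crowded stretch. The 3 mice of each gene lie on the same side of 0, and the 14 lower genes run from a mean of -1.48 to -0.25.

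The inward rectifier potassium channels, which pass potassium more easily into the cell than out of it and hold the resting potential, held the most calls of any channel family here. Of 10 measured members 6 were lower, 1 was higher and 3 did not pass, with a family median of -0.28. Of the 7 without a row in a crowded stretch 5 were lower (71.4%, against 9.97% of all genes) and 0 were higher. Of these 7, 5 had an unadjusted p under 0.05, and without variance moderation 4 did.

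Kcnj1 encodes ROMK, the apical potassium channel of the thick ascending limb and collecting duct through which potassium is recycled and secreted. It was at -0.28, -0.39 and -0.26 in mice 11, 12 and 13, a mean of -0.31 ± 0.07 (SD, n = 3, adjusted p = 0.0261). In size this is 1.24-fold for base 2 and 2.04-fold for base 10. Both of its rows were below 0 in every mouse, with means of -0.34 and -0.28. Its call ended without mouse 11 (adjusted p = 0.105) or mouse 12 (0.0799), while its mean stayed between -0.34 and -0.27.

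Kcnj10, the Kir4.1 channel of the basolateral membrane of the distal convoluted tubule, was at -0.41, -0.28 and -0.44 in the 3 mice. Its mean of -0.38 ± 0.08 (n = 3) passed the test (adjusted p = 0.0148), and without mouse 11 it did not (adjusted p = 0.0674). Kcnj16, the Kir5.1 subunit that pairs with Kir4.1 in the same membrane, went the other way. It was at 0.30, 0.12 and 0.52, a mean of 0.31 ± 0.20 (n = 3, adjusted p = 0.0482), so in every mouse Kcnj10 was below 0 and Kcnj16 above it. Its 2 rows were both above 0 in every mouse, with means of 0.34 and 0.29, the second in a crowded stretch. The call of Kcnj16 ended without mouse 11 (adjusted p = 0.123), without mouse 13 (0.143), and without its crowded row (mean 0.34, adjusted p = 0.0585). Kcnj15, a related Kir4.2 channel, was at -0.02, -0.13 and 0.30 and did not pass (adjusted p = 0.728).

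Kcnj8 encodes Kir6.1, the pore of the ATP-sensitive potassium channel of vascular smooth muscle and pericytes. It was at -0.22, -0.96 and -0.82, a mean of -0.67 ± 0.39 (n = 3, adjusted p = 0.0171), so mouse 11 stood well above mice 12 and 13. Its rows were close, at -0.695 and -0.64, and each showed that order. Without mouse 13 the adjusted p was 0.0564. Kcnj2, the Kir2.1 channel of endothelium and muscle, was lower by less. It was at -0.255, -0.21 and -0.28, a mean of -0.25 ± 0.04 (n = 3, adjusted p = 0.0438), with rows at -0.33 and -0.17. Its call ended with any 1 mouse left out (highest adjusted p 0.221) and when its first row alone was used (-0.17, adjusted p = 0.215).

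Kcnj9, a G protein-gated channel known mainly from brain, had the lowest mean outside the crowded stretches. Its row was at -0.91, -1.07 and -0.675, a mean of -0.89 ± 0.20 (n = 3, adjusted p = 0.00169), and it passed with any 1 mouse left out. A second row of Kcnj9 did not show this. It was listed at 0 in mouse 12 and was at 0.48 in mouse 11 and -0.20 in mouse 13. Averaging that row in moved the mean to -0.575 (adjusted p = 0.0471).

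Kcnj12, the Kir2.2 channel of heart and skeletal muscle, had the lowest mean of all channel genes, -1.48 ± 0.17 (n = 3, adjusted p = 0.000173). That mean joins 2 rows that differ by 2.63. One row was at -3.10, -2.94 and -2.345 and has 20 very low rows within 100 row numbers. The other lies outside such stretches and was at -0.06, -0.21 and -0.22, a mean of -0.16, which did not pass without the first row (adjusted p = 0.159). The remaining inward rectifiers Kcnj6 (-0.11 ± 0.07) and Kcnj4 (0.03 ± 0.17) did not pass. Kcnj11, the pore of the pancreatic ATP-sensitive channel, was measured in mouse 11 alone (-0.38), and Kcnj3 and Kcnj5 were listed at 0 in all 3 mice.

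Several of these genes are neighbours in the genome. Among protein-coding genes of the RefSeq annotation Kcnj9 and Kcnj10 lie next to each other on chromosome 1, and both were lower. Kcnj16 and Kcnj2 are neighbours on chromosome 11, and one was higher and the other lower. Kcnj1 has Kcnj5 as its neighbour on chromosome 9, and Kcnj5 gave no value. The RefSeq starts of the tubule channels Kcnj1 and Kcnj10, and of Kcnj9 as the neighbour of Kcnj10, are shown as examples of genes that were lower on rows outside crowded stretches. Kcnj8 and Kcnj2 were too and are not shown. Each run covers 250 bases before and 50 after the start, 5′ to 3′, and capitals mark a match to a searched motif.

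Kcnj1, GRCm38.p6, chr9:32393735-32394034, plus strand: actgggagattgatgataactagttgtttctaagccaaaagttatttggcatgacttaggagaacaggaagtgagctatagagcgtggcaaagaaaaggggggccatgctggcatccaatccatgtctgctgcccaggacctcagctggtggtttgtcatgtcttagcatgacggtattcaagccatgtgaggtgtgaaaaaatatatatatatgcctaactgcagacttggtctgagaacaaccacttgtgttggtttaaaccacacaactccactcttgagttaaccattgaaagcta

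Kcnj10, GRCm38.p6, chr1:172340960-172341259, plus strand: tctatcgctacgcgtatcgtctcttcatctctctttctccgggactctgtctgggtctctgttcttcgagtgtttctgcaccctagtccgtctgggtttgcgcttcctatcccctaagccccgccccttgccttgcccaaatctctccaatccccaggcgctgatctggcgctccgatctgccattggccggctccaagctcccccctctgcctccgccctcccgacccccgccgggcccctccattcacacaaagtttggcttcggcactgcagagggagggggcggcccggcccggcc

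Kcnj9, GRCm38.p6, chr1:172329273-172329572, minus strand: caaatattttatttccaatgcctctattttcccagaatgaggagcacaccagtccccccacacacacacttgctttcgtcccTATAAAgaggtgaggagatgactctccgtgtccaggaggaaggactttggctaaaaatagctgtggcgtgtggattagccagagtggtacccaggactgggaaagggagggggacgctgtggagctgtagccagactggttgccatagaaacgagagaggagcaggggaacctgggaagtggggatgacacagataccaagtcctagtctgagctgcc

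The starts differ in composition. That of Kcnj1 is 43.7% G and C with 2 CpG dinucleotides, that of Kcnj9 52.3% with 5, and that of Kcnj10 63.7% with 21. The median over 32851 RefSeq promoters of that length is 52.7% with 7, and over the 145 promoters of 104 channel genes 58.0% with 9. Both strands were searched for the TATA box TATAAA, the E-box CACGTG, the AP-1 site TGANTCA and the kappaB consensus. A TATA box match was found in the start of Kcnj9, and 13.6% of all promoters hold one. The E-box, AP-1 and kappaB letters, in 7.15%, 7.81% and 5.8% of all promoters, were not in these 3 windows. A match is a string of letters and not a shown site.

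**Figure D2:**
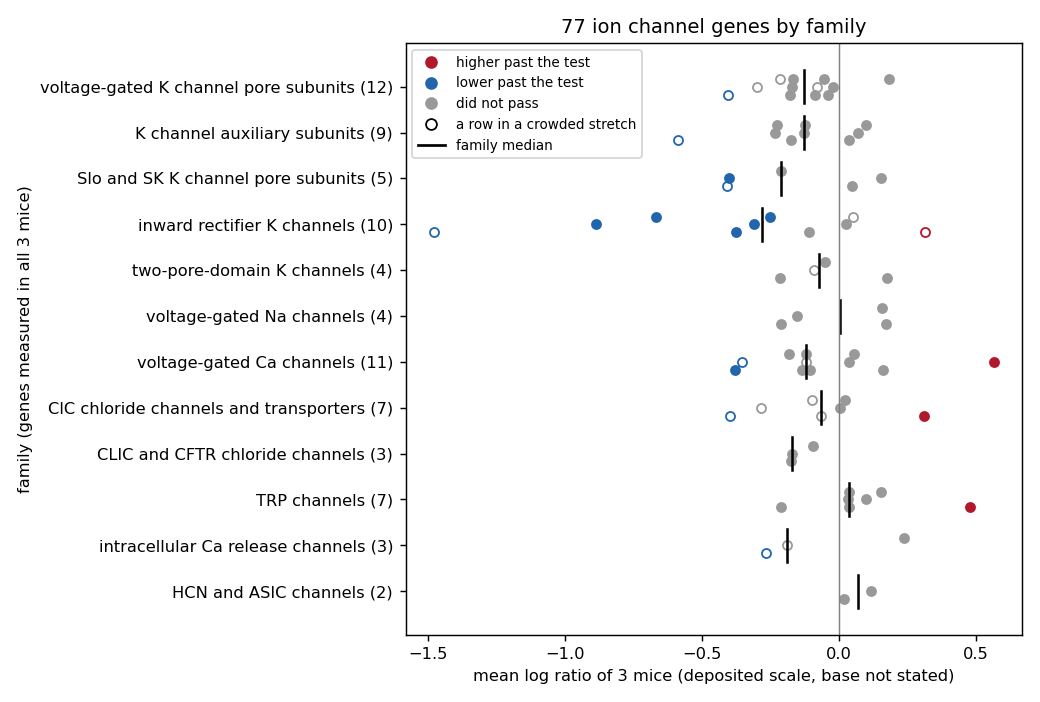
Mean log ratio over 3 mice (horizontal axis, deposited scale) of each of the 77 measured channel genes, by family (vertical axis, with the number measured), coloured by call, with the family median as a black line and open circles for genes with a row in a crowded stretch. The inward rectifiers hold 6 of the 14 lower genes. The TRP, voltage-gated sodium, two-pore-domain potassium, CLIC and CFTR, and HCN and ASIC families hold none of them, with 2 to 7 genes measured in each.

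The voltage-gated potassium channels, which repolarise nerve and muscle cells after an action potential, had means mostly below 0 and few calls. Of 12 measured pore subunits 11 had a mean below 0, with a median of -0.128. Past the test 1 was lower (8.3%, against 9.97% of all genes) and 0 were higher (3 had an unadjusted p under 0.05). The called gene was Kcnd2, the A-type channel Kv4.2 of neurons. It was at -0.41, -0.47 and -0.33, a mean of -0.405 ± 0.07 (n = 3, adjusted p = 0.0112), on a row in a crowded stretch. Its other row was listed at 0 in 2 mice and was at -0.035 in mouse 13. Kcna5, the vascular and atrial channel Kv1.5, had rows of opposite sign, -0.35 outside and 0.19 inside a crowded stretch. Its mean of -0.08 did not pass (adjusted p = 0.439), and the row outside the stretch alone did (adjusted p = 0.0249). Kcnq1, which together with its subunit Kcne1 forms a channel of the proximal tubule brush border, was at 0.16, 0.49 and -0.11 (adjusted p = 0.284). Kcne1 was at 0.07 ± 0.05 (adjusted p = 0.508).

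Among the auxiliary subunits, which shape how potassium channels open and reach the membrane, 1 of 9 was lower (11.1%, against 9.97% of all genes). Of the 9, 0 were higher and 3 had an unadjusted p under 0.05. Kcnab2, a beta subunit of the Kv1 channels, was at -0.43, -0.59 and -0.74, a mean of -0.59 ± 0.16 (n = 3, adjusted p = 0.0055). It passed with any 1 mouse left out, but its row lies in a crowded stretch, with 4 very low rows nearby. The related Kcnab1 had rows at 0.004 and -0.35 and did not pass (adjusted p = 0.149). Kcne2, a subunit also known from gastric acid secretion, was at -0.23 ± 0.07 (adjusted p = 0.0632). Kcne3 had a value in mouse 12 alone (-0.16).

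Of the 5 Slo and SK channels 2 were lower (40.0%, against 9.97% of all genes) and 0 were higher. Kcnn1, the small-conductance channel SK1 of neurons, was at -0.36, -0.23 and -0.61, a mean of -0.40 ± 0.19 (n = 3, adjusted p = 0.0235), and did not pass without mouse 13 (adjusted p = 0.0629). Kcnu1, the sperm channel Slo3, was at -0.36, -0.40 and -0.47, a mean of -0.41 ± 0.06 (n = 3, adjusted p = 0.0104), on a row in a crowded stretch. A second row of Kcnu1 was at 0.33 in mouse 11 and listed at 0 in the others. Kcnma1, the BK channel that secretes potassium in the collecting duct when flow is high, did not pass. Its row measured in every mouse was at -0.36, -0.23 and -0.05 (adjusted p = 0.114), and a second row, measured in mice 12 and 13, was at 0.11 and 0.56. With the local median of neighbouring rows subtracted, Kcnma1 was at -0.28 and passed (adjusted p = 0.047). Its accessory subunits were incompletely measured: Kcnmb1 had a row at -0.57 in mouse 11 and -0.28 in mouse 13, and Kcnmb4 at -0.18 and 0.10 in the same mice. Kcnn4, the intermediate-conductance channel of epithelia and white blood cells, was at -0.18, 0.265 and 0.05 and did not pass (adjusted p = 0.75).

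The K2P channels, which carry the potassium leak current, held 0 calls in 4 measured genes (2 had an unadjusted p under 0.05 by limma). Kcnk1, the TWIK-1 channel of the nephron, had rows close together, at 0.185 and 0.16. Its mean of 0.175 ± 0.045, above 0 in all 3 mice, did not pass (adjusted p = 0.12). Kcnk5, the TASK-2 channel of the proximal tubule, was at -0.09 ± 0.12 (adjusted p = 0.433). Kcnk4 had rows at -0.41 and -0.03, and the first passed on its own among rows (adjusted p = 0.017), while the gene did not (adjusted p = 0.0927).

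The voltage-gated calcium channels, whose pore, beta and alpha-2-delta subunits couple depolarisation to calcium entry, had 2 of 11 members lower and 1 higher. These shares are 18.2% and 9.1%, against 9.97% and 9.48% of all genes. Cacnb1, the beta subunit of the skeletal muscle channel, had the highest mean of all channel genes. It was at 0.54, 0.47 and 0.69, a mean of 0.57 ± 0.11 (n = 3, adjusted p = 0.00476), or 1.48-fold in base 2 and 3.69-fold in base 10. It passed with any 1 mouse left out. Its second row was listed at 0 in every mouse. The lower members were Cacna1g, the T-type channel Cav3.1 found in vessels, and Cacna2d2, an alpha-2-delta subunit. Cacna1g was at -0.28, -0.46 and -0.40, a mean of -0.38 ± 0.09 (n = 3, adjusted p = 0.0152), and passed with any 1 mouse left out. Cacna2d2, on a row in a crowded stretch, was at -0.20, -0.41 and -0.45 (adjusted p = 0.0234), and its call ended without mouse 12 (adjusted p = 0.0616) or mouse 13 (0.0666). Cacnb4 had 1 row below 0 in every mouse, with a mean of -0.385, and another at 0.02 that ranged from -0.23 to 0.44. The gene did not pass (adjusted p = 0.203).

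The voltage-gated sodium channels, which carry the upstroke of the action potential, held 0 calls in 4 measured genes (1 had an unadjusted p under 0.05 by limma), and their means ran from -0.21 for Scn10a to 0.17 for Scn3a. The acid-sensing channels Asic2 and Asic5 were at 0.02 ± 0.27 and 0.12 ± 0.15, with 0 calls (0 with an unadjusted p under 0.05 by limma), and none of the HCN pacemaker genes was measured in all 3 mice.

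Chloride channels went both ways. Clcn5 encodes the ClC-5 chloride-proton exchanger of proximal tubule endosomes, which is needed to take up filtered protein and is lost in Dent disease. It was at 0.26, 0.39 and 0.28, a mean of 0.31 ± 0.07 (n = 3, adjusted p = 0.0261), or 1.24-fold in base 2 and 2.04-fold in base 10. Its call ended without mouse 11 (adjusted p = 0.0924) or mouse 12 (0.0802), with the mean still at 0.33 and 0.27. Clcn6, a late endosome exchanger known from neurons, was at -0.65, -0.42 and -0.13, a mean of -0.40 ± 0.26 (n = 3, adjusted p = 0.0358), on a row in a crowded stretch. It lost its call without mouse 11 (adjusted p = 0.182) or mouse 12 (0.0699), and its other row was at -0.23 and -0.26 in mice 11 and 13.

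The other 5 ClC genes did not pass. The endosomal exchanger Clcn4 came close, at -0.34, -0.10 and -0.41 (adjusted p = 0.054), and passed without mouse 12 (-0.37, adjusted p = 0.0307). A row of it, at -0.31, lies in a crowded stretch with 20 very low rows nearby, and with the local median subtracted the gene was at -0.11 (adjusted p = 0.349). Clcn2, a chloride channel of many epithelia, had rows at 0.08 and -0.28, the second in a crowded stretch. The lysosomal exchanger Clcn7 was at -0.06 ± 0.09, and its rows were at 0.06 and -0.19. Clcn3 was at 0.003 ± 0.105 on a row measured in every mouse, while a second row, listed at 0 in mice 11 and 13, was at -2.235 in mouse 12. Clcn1, the chloride channel of skeletal muscle, spread most of all channel genes, at 0.74, 0.275 and -0.94. It did not pass (adjusted p = 0.957), and without mouse 13 it was at 0.51 and did (adjusted p = 0.0386). The CLIC and CFTR genes held 0 calls in 3 measured genes (0 with an unadjusted p under 0.05 by limma). Cftr, the epithelial chloride channel mutated in cystic fibrosis, was at -0.18 ± 0.18, Clic4 at -0.17 ± 0.23 and Clic3 at -0.09 ± 0.34. Clic5, known from podocytes, had a value in mouse 12 alone (0.006).

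The TRP channels, cation channels that admit calcium after stretch, heat or receptor signals, had means mostly above 0. Of 7 measured genes, counting Trpc4ap (0.04 ± 0.12), 6 had a mean above 0. Past the test 1 was higher (14.3%, against 9.48% of all genes) and 0 were lower (1 had an unadjusted p under 0.05). The gene below 0 was Trpc1, at -0.21 ± 0.31 (adjusted p = 0.227). Trpv2, a calcium-permeable channel well known in macrophages, was at 0.51, 0.72 and 0.21, a mean of 0.48 ± 0.255 (n = 3, adjusted p = 0.0205), or 1.39-fold in base 2 and 3.00-fold in base 10. It did not pass without mouse 12 (0.36, adjusted p = 0.0521). Of 8 measured leukocyte markers 5 were higher (62.5%) and 1 was lower (12.5%), against 9.48% and 9.97% of all genes. Medians of the 8 were 0.41, 0.18 and 0.38 in mice 11, 12 and 13. The highest were S100a9 (1.42 ± 0.38) and S100a8 (0.56 ± 0.06), known from neutrophils. Ly6g, also known from neutrophils, was below 0 in every mouse, at -0.19 ± 0.15, and did not pass (adjusted p = 0.147). Ptprc, at 0.10 ± 0.06, did not pass either (adjusted p = 0.336). The lower one was the macrophage receptor Csf1r, at -0.34, -0.85 and -0.965 (adjusted p = 0.00919). The other higher markers were Lyz2 (0.475 ± 0.315), Itgb2 (0.44 ± 0.11) and Cd4 (0.335 ± 0.15). The calls of Lyz2 and Cd4 ended without mouse 11 or 13 (highest adjusted p 0.123 and 0.101). Any part of leukocytes in the Trpv2 value was not tested. Trpv4, an osmosensitive channel of the distal tubule, was at 0.15 ± 0.105 (adjusted p = 0.192), and Trpv6, a calcium entry channel of the distal nephron, at 0.12, 0.32 and -0.15 (adjusted p = 0.515). The magnesium-permeable Trpm7 was at 0.035 ± 0.23. Trpc6, the podocyte channel mutated in familial glomerulosclerosis, had a row at 0.155 and 0.18 in mice 11 and 12 and listed at 0 in mouse 13, so it was not tested.

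Of the intracellular channels that release calcium from the endoplasmic reticulum 1 of 3 was lower (33.3%, against 9.97% of all genes) and 0 were higher. Ryr2, the ryanodine receptor of heart, was at -0.25, -0.23 and -0.31, a mean of -0.27 ± 0.04 (n = 3, adjusted p = 0.0377). Of its 3 rows the 2 in crowded stretches were at -0.49 and -0.21, and the row outside was at -0.10 and did not pass alone (adjusted p = 0.354). With any 1 mouse left out the call ended (highest adjusted p 0.175). Ryr1, the ryanodine receptor of skeletal muscle, was at 0.09, 0.10 and 0.52 (adjusted p = 0.136). Itpr2, an inositol trisphosphate receptor, had 4 rows that ran from -0.50 to 0.04, and its mean of -0.19 ± 0.06 did not pass (adjusted p = 0.103). Itpr3 was listed at 0 in every mouse.

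**Figure D3:**
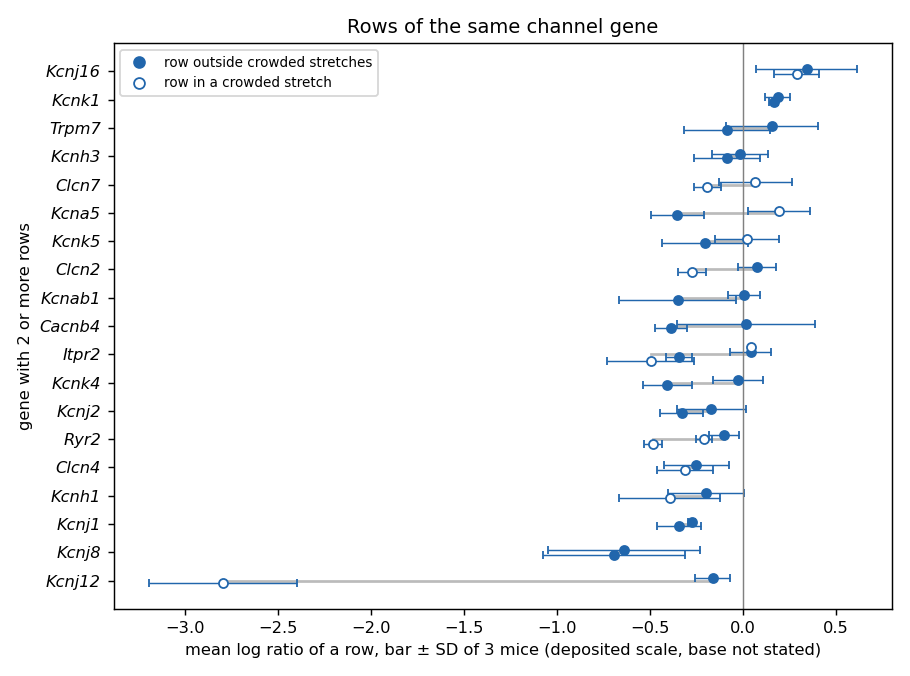
Mean log ratio of each row (horizontal axis, deposited scale, bars ± SD of 3 mice) for the 19 channel genes with 2 or more rows measured in every mouse; open circles mark rows in crowded stretches and grey lines join the rows of a gene. The rows of Kcnj12 differ by 2.63, while those of Kcnk1, Kcnj16 and Kcnj8 differ by 0.02 to 0.06.

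Rows of the same gene gave a check that does not depend on the test. In 11 of the 19 genes with several measured rows the rows had 1 sign, and in 8 they had both. The median gap between the lowest and highest row of a gene was 0.239, close in size to the means of Kcnj2 and Ryr2. Kcnj1, Kcnj8 and Kcnj16 are called genes whose rows lie within 0.07 of each other. The rows of Cacnb4, Clcn2, Itpr2, Kcna5 and Kcnab1 differed in sign by more than 0.3. Taken row by row over 8439 rows, 24 of 99 channel rows were lower (24.2%) and 4 were higher (4.04%), against 9.75% and 9.66% of all rows. These counts keep rows in crowded stretches, among the lower ones those of Kcnj12, Kcnab2, Kcnd2 and Kcnu1. They also count rows of 1 gene separately, such as both rows of Kcnj1 and both of Kcnj8.

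**Figure D4:**
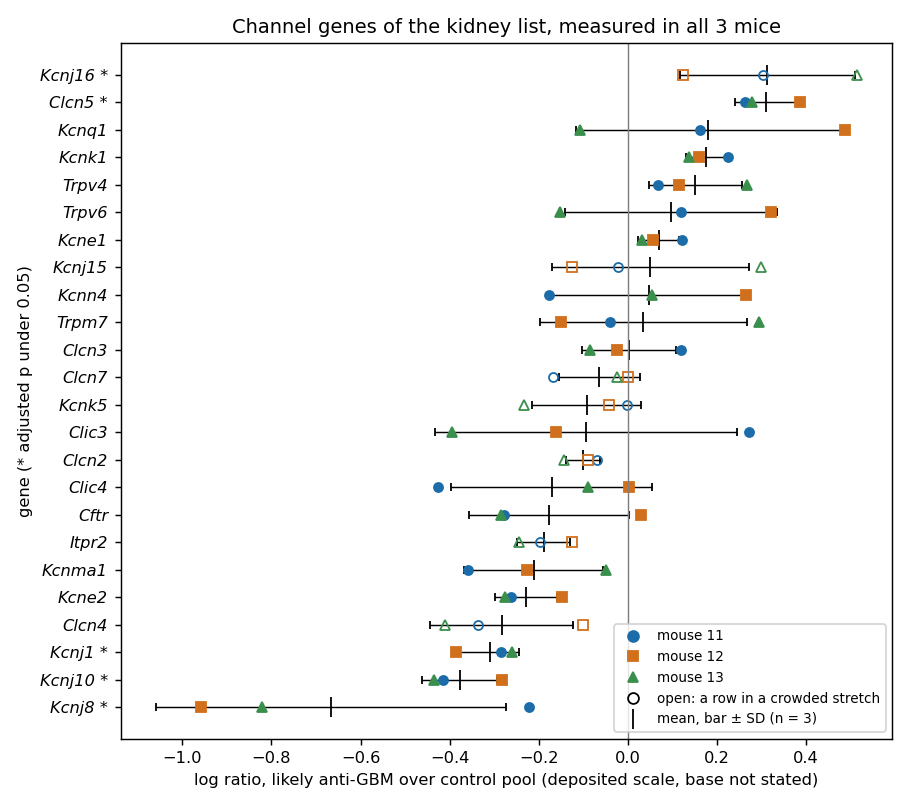
Log ratio (horizontal axis, deposited scale) of the 24 channel genes of the kidney list measured in every mouse, with each mouse as a symbol, the mean ± SD in black, an asterisk for adjusted p under 0.05 and open symbols for genes with a row in a crowded stretch. Kcnj8, Kcnj10 and Kcnj1 lie lowest and Clcn5 and Kcnj16 highest, with the other 19 genes between.

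Set apart by where they are best known, kidney and nerve or muscle channels gave different counts. Of the 24 measured kidney channels 3 were lower (12.5%) and 2 were higher (8.3%), a total of 20.8% that is near the 19.4% of all genes, with a median of -0.078. Without mouse 11 the kidney list kept 1 call, Kcnj8, and without mouse 13 it had 3. Of the 31 measured nerve and muscle channels 8 were lower (25.8%, against 9.97% of all genes) and 0 were higher, with a median of -0.167. By limma 12 of the 31 had an unadjusted p under 0.05, against 2602 of all 7235 genes. Without rows in crowded stretches that list had 3 lower genes of 26, Kcnj9, Kcnn1 and Cacna1g, a share of 11.5% that is near the 9.43% of all genes at that setting. With the local median subtracted that list had 8 lower genes of 31 (25.8%, against 10.6% of all genes). Without mouse 13 it had 5 lower genes and 1 higher. Cacnb1, a muscle channel subunit that was higher, stands in neither list, so the count of 0 higher depends on how the list was drawn up. The difference between the lists was not tested. Nerve and glia markers were hardly measured: 5 of 13 with a row had values in every mouse, and 0 were called (1 at an unadjusted p under 0.05 by limma). All 5 had a mean below 0, with a median of -0.108, and 2 of them were below 0 in every mouse. Nefl, Nefm, Gap43 and Th were listed at 0 in every mouse. Of 12 measured striated muscle markers 2 were lower (16.7%, against 9.97% of all genes), Myh1 (-1.27 ± 0.315) and Pvalb (-0.77 ± 0.24). The other 10 did not pass, 7 of the 12 had a mean above 0 and the list median was 0.014. Pvalb is also a marker of the distal convoluted tubule.

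The genes that work beside these channels in tubular salt transport were set out as a separate list. Of 19 measured partners 3 were lower (15.8%, against 9.97% of all genes), 2 were higher (10.5%, against 9.48%) and 14 did not pass. Their median was 0.033. The subunits of the epithelial sodium channel, whose symbols begin with Scnn1 and so are outside the chosen names, did not pass. Scnn1a was at 0.015, 0.16 and -0.10 (adjusted p = 0.831), Scnn1b at 0.15, 0.095 and 0.094 (adjusted p = 0.283) and Scnn1g at 0.22, 0.19 and -0.09 (adjusted p = 0.405). A second row of Scnn1g was at 0.74 in mouse 13 and listed at 0 in the others.

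The sodium-chloride cotransporters of the tubule did not pass either. Slc12a1, the cotransporter of the thick ascending limb that depends on ROMK, was at 0.10, -0.43 and 0.22 (adjusted p = 0.845), and Slc12a3, that of the distal convoluted tubule, at 0.19 ± 0.04 (adjusted p = 0.0935). The partners that were higher were Atp1b1, the beta subunit of the sodium pump (0.285 ± 0.04, adjusted p = 0.0309), and the secretory cotransporter Slc12a2 (0.31 ± 0.155, adjusted p = 0.0381). Atp1b1 lost its call with any 1 mouse left out (highest adjusted p 0.123), and Slc12a2 without mouse 11 or 13 (highest adjusted p 0.133). The lower partners handle calcium in the distal tubule. They were the sodium-calcium exchanger Slc8a1 (-0.58 ± 0.145, adjusted p = 0.00534) and the calcium-binding proteins Calb1 (-0.48 ± 0.09, adjusted p = 0.00734) and Pvalb (adjusted p = 0.00412), and they passed with any 1 mouse left out. Calb1 has 2 rows that differ, at -0.18 in a crowded stretch and -0.77 outside it, and the first alone did not pass (adjusted p = 0.131). The first of the rows of Slc8a1 was at -0.36 and passed alone (adjusted p = 0.0302).

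Markers of the segments that carry Kcnj1 and Kcnj10 were lower in part. Of 6 measured markers of the thick ascending limb and distal tubule 3 were lower, Pvalb, Calb1 and Egf (-0.31 ± 0.07), and 0 were higher. Their medians were -0.13, -0.41 and -0.30 in mice 11, 12 and 13, and Umod was listed at 0 in every mouse. The markers did not share 1 order of mice. Calb1, Egf and Slc12a1, the last on a row in a crowded stretch, were lowest in mouse 12. Pvalb and Ptger3 were lowest in mouse 13, and Slc12a3 in mouse 11. Slc12a3, the defining cotransporter of the distal convoluted tubule, was above 0 in every mouse and did not pass. Of 8 measured collecting duct markers 5 were lower (62.5%, against 9.97% of all genes) and 0 were higher, with medians of -0.37, -0.23 and -0.57. Among the 5 were the water channels Aqp4 (-0.86 ± 0.355) and Aqp3 (-0.47 ± 0.20). The defining water channel Aqp2 was at 0.15, 0.14 and 0.065 and did not pass (adjusted p = 0.261), and neither did the intercalated cell exchanger Slc26a4, above 0 in every mouse at 0.10 ± 0.065 (adjusted p = 0.34). Of 5 measured proximal tubule markers 2 were higher (40.0%, against 9.48% of all genes) and 0 were lower, beside the higher Clcn5. The 2 were the anion transporters Slc22a6 (0.30 ± 0.03) and Slc22a8 (0.26 ± 0.09). The calls of Slc22a6 and Slc22a8 ended with any 1 mouse left out (highest adjusted p 0.113 and 0.317), and that of Egf without mouse 11 (0.101) or mouse 12 (0.0824). Of 4 measured markers of smooth muscle and mesangium, the first known for Kcnj8, 3 were higher (75.0%, against 9.48% of all genes) and 0 were lower. Medians of the 4 were 0.25, 0.645 and 0.31. The higher ones were Tagln, Acta2 and Myh11, and Pdgfrb did not pass (0.04 ± 0.05, adjusted p = 0.687). The call of Acta2 ended without mouse 12 (adjusted p = 0.0731), and that of Myh11 without mouse 12 (0.133) or mouse 13 (0.112). The part of these markers in the channel values was not tested.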

How the data were processed

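Kidney RNA of 3 anti-GBM mice was measured on 2-colour arrays against 1 pool of normal RNA. Each array has 1 deposited value for a row, a unit not named by the labels and read from the values as a log ratio. Its base, direction, scanner, background correction and normalization: not given in the sources used here. Signal and flags were not used, so dim or saturated probes could not be told apart, and the number of arrays limits the precision. Rows were named from the platform annotation: 13738 name 1 gene, 52 several and 2491 are not listed, and all 219 channel rows were matched to RefSeq (GRCm38.p6) by gene number. Exact 0 was set as no estimate. Each array was centred on its median of the other values (0.0077, 0.0105 and 0.01). Rows of 1 gene measured on all 3 arrays were averaged, which gave 7235 genes.

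limma 3.58.1 under R 4.3.3 fitted the mean ratio of each gene (lmFit, eBayes; prior of 5.55 degrees of freedom), with Benjamini-Hochberg adjustment over all genes. All adjusted p-values are from this fit unless a row or setting is named. The script was tested on simulated data. Members and lists were chosen with earlier results of these data known. Genes named were all those past the test, the 6 highest and 6 lowest means, the measured kidney channels, genes whose rows differed in sign by over 0.3, and kidney channels on 1 or 2 arrays, with partners past the test and Scnn1 genes; other names were chosen after their values were seen. Alternatives were no centring, zeros kept, 1 row per gene, rows on 2 or 3 arrays, a local median over 101 rows subtracted, crowded stretches left out, robust and no moderation, and each mouse left out; a fit of single rows was added after seeing the data. Figures were drawn with matplotlib 3.10.9 in Python 3.11.15.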

Additional observations from a re-analysis of the deposited data

How the results depend on the processing

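The counts of 18 called channel genes, 14 lower and 4 higher, were the same with no centring and with robust moderation. With 1 row per gene 18 were called, and 14 of them were among the 18 of the main setting. Rows on 2 or 3 arrays gave 17, sharing 15. With the local median subtracted 20 were called, 16 lower (20.8%, against 10.6% of all genes) and 4 higher, sharing 18. With exact zeros kept as values 5 were called, 4 lower and 1 higher, with 1 of the kidney channels, 3 of the nerve and muscle channels and 3 of the salt transport partners; the 5 are 4.95% of the genes tested, against 6.94% of all genes. Without crowded stretches 11 were called (16.2%, against 19.1%), 8 lower (11.8%, against 9.43%) and 3 higher, with 3 of the nerve and muscle channels (11.5%). With the variance of each gene unmoderated, 0 were called in any direction or list, and 3 genes were called in the whole table. There 21 of 77 channel genes had an unadjusted p under 0.05, against 1634 of all 7235 genes. Taken as single rows, with crowded stretches kept, 28 of 99 were called (28.3%, against 19.4% of all rows). With 1 mouse left out the channel calls ranged from 12 to 14, the higher ones from 2 to 4, the lower ones were 10 each time (10 to 10, 13.0% of the channel genes, against 5.13%, 7.45% and 6.79% of all genes without mice 11, 12 and 13), the kidney channels from 1 to 4, the nerve and muscle channels from 6 to 8 and the partners from 3 to 5. Of the 18 called genes 7 passed with each mouse left out in turn: Kcnj12, Kcnj9, Kcnab2, Kcnu1, Kcnd2, Cacna1g and Cacnb1, of which Kcnj12, Kcnab2, Kcnu1 and Kcnd2 rest on crowded rows. No called mean changed sign under these settings. The median of the kidney channels turned from -0.078 to 0.044 with 1 row per gene. No paired analysis was possible because there is 1 group of mice, each against the same pool.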
